A study of Petromyzon marinus and Lampetra planeri with 28 samples.

Results

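Dense runs of sea lamprey (*Petromyzon marinus*) ATAC-seq peaks are stretches of one scaffold in which 10 or more consecutive peaks follow each other with no gap above 2000 bp. Each maximal run was taken as 1 region. The rule found 23 such runs among 138593 maximal runs of 1 or more peaks, and they hold 238 of 236315 sea lamprey peaks. The runs were chosen by the positions of the peaks themselves, so their peak counts, gaps and lengths are a description without a test.

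The peak set of each species is 1 consensus list of positions, merged by the authors over T20 DNTs, T21 DNTs and T23 heads. In the sea lamprey, 3 ATAC-seq libraries of 20 individuals each were made from T21 DNTs, 3 of 20 from T20 DNTs and 3 of 6 from T23 heads. In the brook lamprey (*Lampetra planeri*), there were 4 libraries of 11 to 20 individuals from T21 DNTs, 3 of 16 to 20 from T20 DNTs and 3 of 6 from T23 heads. RNA-seq of sea lamprey DNTs comprised 3 libraries at T18 (30 embryos each), 2 at T20 and 3 at T21 (35 each), with 12172421 to 91015285 counted fragments per library. The labels give no genotype and no treatment. DNT stands for the dissected dorsal neural tube of the head, and T for the Tahara stage of lamprey development. The libraries pool many embryos, and the sources used here do not say whether replicate pools came from separate spawnings, so the p-values measure only the spread between these libraries. No ATAC-seq library was made at T18, and the consensus lists give neither height nor stage of a peak.

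ATAC-seq marks DNA that a transposase can reach, which in animal genomes includes promoters, enhancers and other regulatory DNA. Several accessible sites close to each other are known from the large introns and flanks of developmental genes. The neural crest, which forms in the dorsal neural tube, leaves it and migrates, is known for genes controlled by many such distal elements. Peaks are placed by mapped reads, so repeated sequence and the state of a genome assembly also bear on where peaks can be called.

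The runs were 6593 to 13648 bp long (median 9906 bp). Of the 23 runs, 17 had 10 peaks, 4 had 11 and 2 had 12. Just outside the threshold lay 35 runs of 9 peaks. Peaks covered 23.7% to 70.4% of a run (median 42.8%). Peaks in runs were 199 to 2226 bp wide (median 336 bp), against a median of 341 bp for all other sea lamprey peaks. The 215 gaps inside runs were 19 to 1985 bp long (median 435 bp). Just beyond the gap limit, the run on scaf_00292 was 2033 bp from its next peak and the run on scaf_00059 was 2233 bp from its next peak.

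The runs lay on scaffolds of 2 kinds. The extent of a scaffold is given here as the end of its last transcript or last peak of either species, since no sequence lengths were used. On long scaffolds, with an extent of at least 105398 bp, there were 7 runs, each filling 0.0616% to 9.72% of the extent. On short scaffolds, with an extent of 6698 to 41966 bp, there were 16 runs, which filled a median of 96.1% of the extent. Where a run holds the last peak or transcript of its scaffold, it ends at the extent by definition. This median thus does not give the share of the true scaffold length, which was not known here. The division at 50000 bp was chosen after the extents were seen. On 13 scaffolds every sea lamprey peak belonged to the run. Of all runs of 10 or more, 69.6% were on short scaffolds, against 45.6% of runs of 5 to 9 peaks and 15.8% of all other runs. Of the 35 runs of 9 just outside the rule, 74.3% were on short scaffolds, so this trait is not particular to the 23 runs. Runs on long scaffolds were longer (median 11531 bp) and less covered by peaks (median 30.7%) than those on short scaffolds (8903 bp and 48.6%). How far a short scaffold ends the run cannot be told from these positions.

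**Figure D1:**
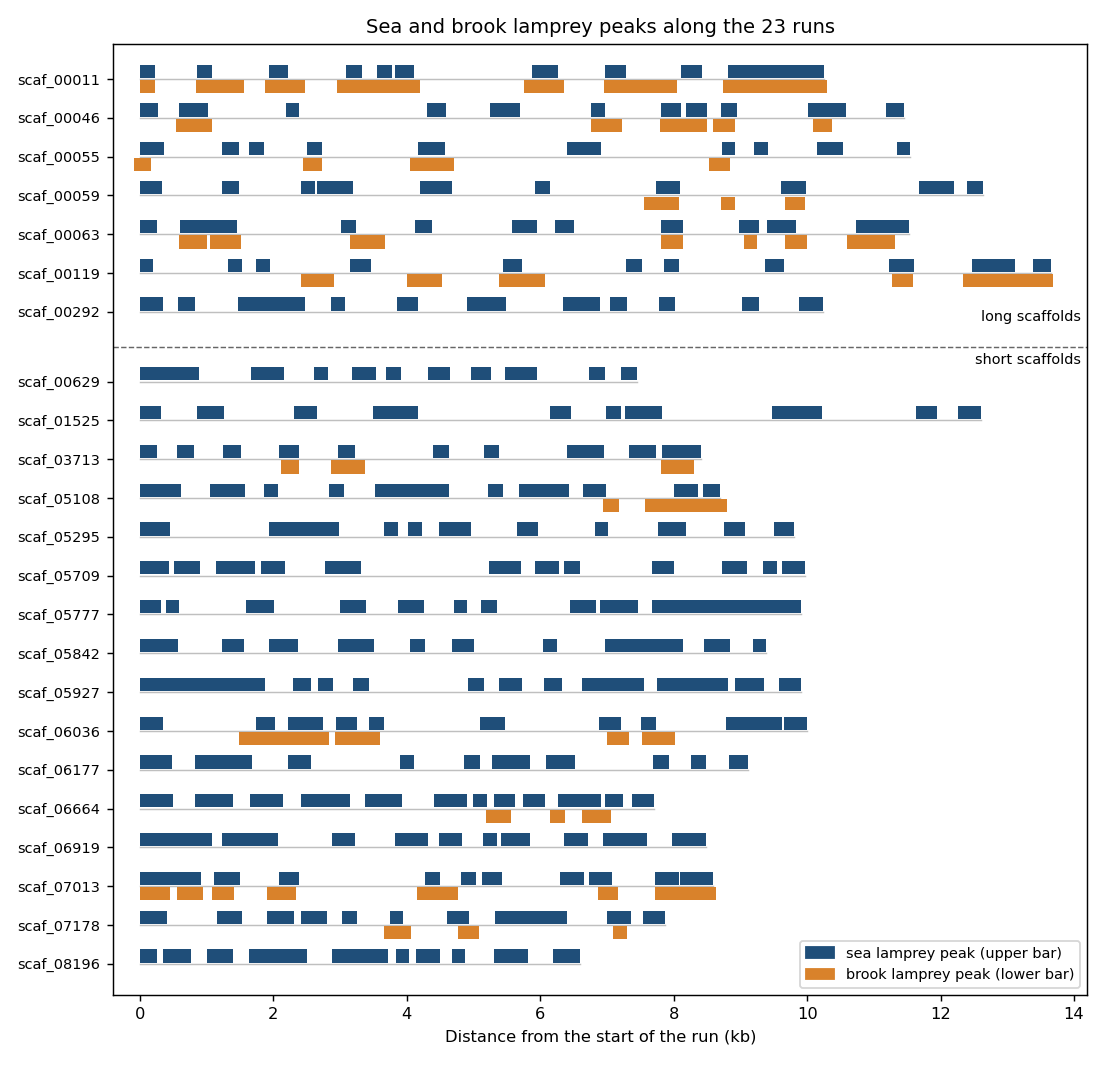
Each line is 1 of the 23 runs, with sea lamprey peaks as upper bars and brook lamprey peaks as lower bars, drawn to scale by the distance from the start of the run in kb. The 7 runs on long scaffolds are above the dashed line and the 16 on short scaffolds below it, where 10 runs have no brook lamprey peak.

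The 2 runs with the most peaks, of 12 each, were on short scaffolds. Of the 4 runs of 11, 25% were on short scaffolds, against 76.5% of runs of exactly 10. On scaf_05709, positions 162 to 10122 held 12 peaks, which are all the sea lamprey peaks of that scaffold, and no brook lamprey peak or assembled transcript lies on it. On scaf_06664, positions 434 to 8131 held 12 peaks that covered 70.4% of the run. It had the highest density, 1.56 peaks per kb, and no gap above 472 bp. The widest peak in any run, of 2226 bp, was the last of 10 on scaf_05777. The next widest, of 1882 bp, was the first of 11 on scaf_05927 (154 to 10066). The longest run on a short scaffold covered 12604 bp of scaf_01525 (6503 to 19106), with 10 peaks, no locus and no brook lamprey peak inside.

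Scaf_00292 differed from the other 6 long scaffolds. Its run of 11 peaks (82124 to 92366) lay among 69 sea lamprey peaks on an extent of 105398 bp. Those 69 peaks fell into 14 runs, of which the next largest had 8 peaks and 3 were single peaks. No brook lamprey peak and no transcript were placed on this scaffold. Of the 409 scaffolds with at least 20 sea lamprey peaks, 3 had no brook lamprey peak, and scaf_00292 was among them.

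Brook lamprey reads were mapped by the authors to the sea lamprey genome, so both peak sets share coordinates. Inside the runs lay 53 brook lamprey peaks, in 12 of the 23 runs, and the other 11 runs (47.8%) had none. Of all other runs, most of them single peaks, 47.9% had none. The share without a brook lamprey peak was 22.7% for runs of 5 to 9 and 34.3% for runs of 9. Of the 238 sea lamprey peaks in runs, 57 (23.9%, 95% Wilson interval 19.0% to 29.8%) overlapped a brook lamprey peak by at least 1 bp. Of the 236077 other sea lamprey peaks, 92378 (39.1%, interval 38.9% to 39.3%) did so. The intervals cover counting error only, and peaks of 1 run are not independent. The consensus sets have no replicates, so this difference was not tested over samples. The share was 40.4% for single peaks, 38.9% in runs of 2 to 4 and 35.0% in runs of 5 to 9. It was 27.3% in the runs of 9 just outside the rule.

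Pooled over runs, the lower share was seen on short scaffolds. There, 26 of 165 peaks in runs (15.8%) overlapped a brook lamprey peak, against 39.3% of the other peaks on short scaffolds. On long scaffolds, 31 of 73 peaks in runs (42.5%) did so, against 39.1% of the other peaks on long scaffolds. Single runs on long scaffolds ranged from 0% on scaf_00292 to 90% on scaf_00011 (median 40%). In runs of 5 to 9 peaks, the shares were 33.0% on short and 36.7% on long scaffolds. Brook lamprey peaks were absent from 10 of the 16 runs on short scaffolds and from 1 of the 7 on long scaffolds, that on scaf_00292. They were absent from 44.0% of other runs on short scaffolds and from 48.7% on long scaffolds. For runs of 5 to 9, the shares without a brook lamprey peak were 29.4% on short and 17.0% on long scaffolds. Scaffold kind moved with the share, and its part in the result was not tested.

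**Figure D2:**
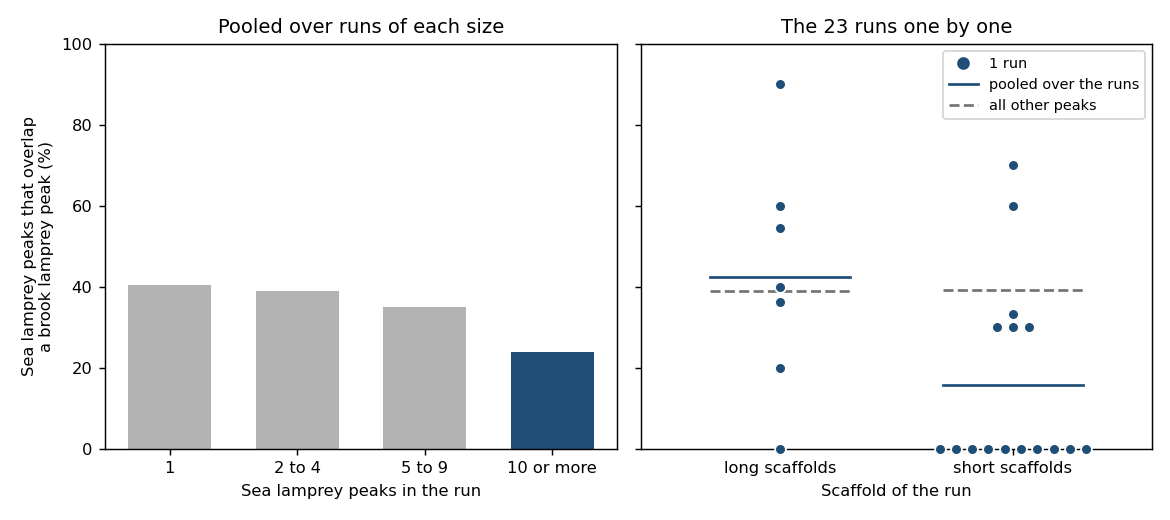
The left panel gives the percent of sea lamprey peaks that overlap a brook lamprey peak, pooled over runs of 1, 2 to 4, 5 to 9 and 10 or more peaks. The right panel gives the same percent for each of the 23 runs as a point, with solid lines for the runs pooled (42.5% on long and 15.8% on short scaffolds) and dashed lines for all other peaks (39.1% and 39.3%).

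The run most shared between the species was on scaf_00011 (105406 to 115662), where 9 of 10 sea lamprey peaks overlapped a brook lamprey peak. Its 7 brook lamprey peaks covered 58.6% of the run, and 1 of them, of 1237 bp, spanned 3 sea lamprey peaks. No locus lay inside. The nearest transcripts were single-exon loci without a strand, XLOC_014110 at 775 bp on the left and XLOC_014111 at 1126 bp on the right. XLOC_014110 had normalised counts of 28.7, 14.9 and 23.8 at T18, 29.9 and 39.1 at T20, and 13.6, 3.06 and 18.5 at T21. T21 and T18 libraries overlapped, and no test was made on neighbours of runs.

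Next came scaf_07013 (2 to 8592) with 7 of 10 peaks shared, then the runs on scaf_00063 and scaf_06036 with 6 of 10 each, and scaf_00046 with 6 of 11. At the other end were the 11 runs with no brook lamprey peak, led by scaf_05709 with 12 peaks and by scaf_00292 and scaf_05927 with 11 each. On scaf_00629, 5 brook lamprey peaks lay on the scaffold but none in the run. Of the 53 brook lamprey peaks inside runs, 9 overlapped 2 or more sea lamprey peaks and 3 overlapped none.

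Scaffolds with neither a brook lamprey peak nor a transcript were frequent among the carriers of runs. Of the 16 short scaffolds with a run, 8 (50%) had neither, against 415 (6.13%) of 6766 other scaffolds in the same range of extent. These other scaffolds held fewer sea lamprey peaks, with a median of 3.34 per 10 kb against 10.5 per 10 kb for the scaffolds with runs. At 10 to 20 sea lamprey peaks per 10 kb, 6 of 9 scaffolds with a run had no brook lamprey peak, against 11 of 27 others (40.7%). At 8 to 10 per 10 kb, the counts were 2 of 5 with a run, against 64 of 165 others (38.8%). Among the others the share rose with density at every step, and it was 2.37% at up to 2 peaks per 10 kb. Dense short scaffolds without a run thus also often had no brook lamprey peak. The extent ends at the last transcript or last peak of either species. A scaffold without brook lamprey peaks can therefore have a shorter extent and a higher density by definition. Density and absence are thus partly linked by the measure, and the part of density in the result on runs was not tested further.

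**Figure D3:**
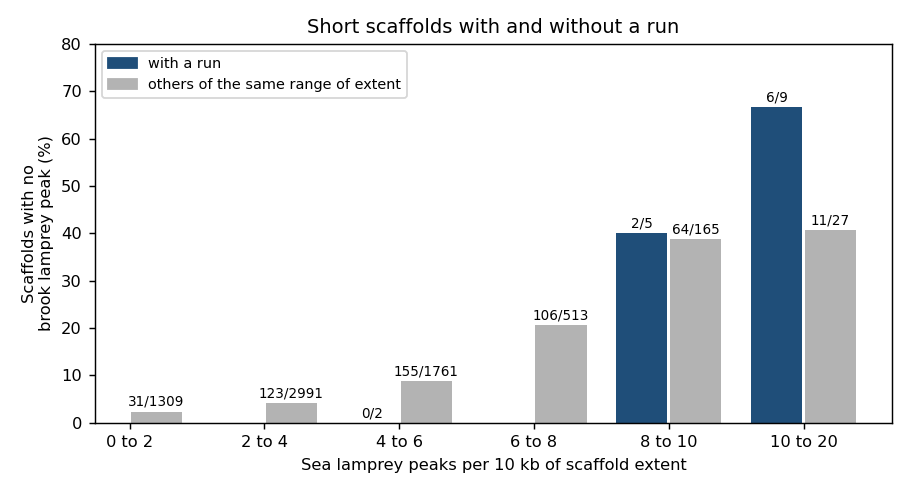
Bars give the percent of short scaffolds with no brook lamprey peak, by sea lamprey peaks per 10 kb of scaffold extent, for scaffolds with a run and for others of the same range of extent, with counts above the bars. In the densest bin 6 of 9 scaffolds with a run and 11 of 27 others had none.

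Most peaks in runs were outside transcripts. Of the 238 peaks, 175 (73.5%) lay outside every locus, 41 (17.2%) in a locus without touching an exon and 22 (9.24%) on an exon. Of all other peaks, 45.1% lay outside loci, 34.1% in a locus without an exon and 20.8% on an exon. Outside loci lay 60.2% of peaks in runs of 5 to 9 and 86.7% of peaks in runs of 9. On long scaffolds the peaks in runs were mostly inside loci, with 52.1% in a locus off exons and 32.9% outside. Among other peaks on long scaffolds, these shares were 41.2% and 36.5%. On short scaffolds 91.5% of peaks in runs were outside loci, against 80.7% of other peaks there.

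Loci inside runs are those whose span from first to last base overlaps a run. There were 22, in 8 runs, of which 5 were on long scaffolds. Of the 22 loci, 13 were spliced with a strand, 9 had no strand, 10 lay wholly inside a run and 3 had no count in any library. A gene name was found for 5 in the lists of the study, which name only loci that changed or clustered there. None of the loci named in 5 lists of developmental genes was inside a run: 0 of 25 for neural crest and plate border factors, 0 of 47 for neural tube factors, 0 of 22 for Hox genes, 0 of 73 for signals and receptors, and 0 of 196 for guidance and adhesion. Of all loci with a name in the lists of the study, 5 of 5028 lay inside a run, so counts of 0 are near the background and are not read as a result about these genes.

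The run on scaf_00063 (1461903 to 1473433) lay in *Tnc* (XLOC_049187), which encodes tenascin C, a glycoprotein of the extracellular matrix known in other vertebrates from the paths of migrating neural crest. The locus spans 1447996 to 1510986 on the plus strand. In the transcripts that start before the run, all 10 peaks of the run were in the first intron, of 39271 bp. The run began 13907 bp downstream of the first start site. Other transcripts of the locus start at 1494820 to 1496287, past the end of the run, and counts per locus do not separate them. The run held 10 of the 20 sea lamprey peaks of the locus. Of these 10 in the run, 6 overlapped a brook lamprey peak, against 5 of the other 10 in the locus.

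The run on scaf_00055 (637396 to 648936) lay within 4 nested loci. The largest was *KCNA4* (XLOC_046336), a Shaker-type voltage-gated potassium channel gene, which spans 554011 to 816486 on the minus strand. The run was inside the third intron of the *KCNA4* transcripts, of 259949 bp, and 167550 bp downstream of the start site. It held 10 of the 73 sea lamprey peaks of the locus, 4 of them shared, against 25 of the other 63. XLOC_046222 on the plus strand covers almost the same span, and *Ano2* (XLOC_046223, plus strand), named for a calcium-activated chloride channel, and XLOC_046337 (minus strand) lie inside both. Each of these 3 also had the whole run in 1 intron. *Ano2* and XLOC_046337 have nearly the same span on opposite strands and an intron of the same length, 172151 bp. Whether they are separate genes was not tested.

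The run on scaf_00046 (2391632 to 2403088) lay in *plaa* (XLOC_041563, minus strand, 2388833 to 2453343), which is named for phospholipase A2-activating protein, a factor of ubiquitin-dependent protein turnover. It filled part of a 50449 bp intron, which is intron 11 of a transcript with 13 exons. The run held 11 of the 22 sea lamprey peaks of the locus, 6 of them shared with brook lamprey, against 7 of the other 11. A 3-exon locus of the same name and strand, XLOC_041564, lay wholly in the run (2391784 to 2396530). It has 283 exonic bases, and as reads with several mappings were counted, its reads and those of similar copies cannot be told apart.

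On long scaffolds, start sites of transcripts fell inside the runs on scaf_00046, scaf_00059 and scaf_00119. On scaf_00046, the start of XLOC_041564 was 315 bp from the nearest peak of the run. On scaf_00059 (3037445 to 3050075), the unnamed locus XLOC_047725 had a first start 22551 bp before the run and 4 more inside it. The start at 3049993 lay on the last peak of the run, and the others were 420 to 464 bp from a peak. None of the peaks nearest these starts was shared with brook lamprey. In the run, 2 of 10 peaks were shared, against 10 of the other 15 peaks of the locus. The longest run, on scaf_00119 (93323 to 106970, 11 peaks), held the starts of XLOC_056569 and XLOC_056570, both on the plus strand and unnamed. A start of XLOC_056569 at 96461 was 5 bp from a peak.

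Among short scaffolds, the runs on scaf_07013, scaf_03713 and scaf_06036 held loci. On scaf_07013, the 11 transcripts of XLOC_070031 (plus strand, 4822 to 6822) lay wholly inside, and 4 of their start sites fell on the fifth peak of the run, a peak of 220 bp not shared with brook lamprey. XLOC_070032 has almost the same span on the other strand and no counts. On scaf_03713 (2536 to 10944), XLOC_067252 began inside the run and 4 loci without a strand lay beside it. On scaf_06036 (143 to 10134), the single locus XLOC_069318 had 5 counts in 1 T21 library and none in the others.

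The stage course of the loci inside runs was taken from the DNT RNA-seq. Of the 22 loci, 12 passed edgeR's filter on low counts and were tested, and the filter keeps loci with enough counts in at least a few libraries. In T21 against T18, 4 of the 12 passed edgeR's quasi-likelihood F-test at an adjusted p under 0.05 (Benjamini-Hochberg, over all 25317 loci that entered the test), and all 4 were higher. Over all loci tested, 33.6% differed in this comparison, 18.9% being higher and 14.7% lower, so the count in runs was near the background. The median log2 fold change of the 12 was 0.15, against -0.03 over all tested loci. No locus inside a run was lower by this test, and 1 was lower at an unadjusted p under 0.05. DESeq2 also called 4 loci inside runs, and 8660 of 40539 over all loci. With 1 T18 or T21 library left out, the fewest calls were 1, without T18 replicate 3. There were 2 each without T18 replicate 2, T21 replicate 1 or T21 replicate 3. Over all loci, these fits called 7211 of 23868, 6684 of 23718, 6808 of 25892 and 6945 of 23623, in that order. The number of loci inside runs that entered the test also changed between fits.

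In T20 against T18, 1 of the 12 differed by the same edgeR test, against 17.3% of all loci tested (10.8% higher and 6.51% lower). In T21 against T20, 1 of the 12 differed, against 9.80% of all loci tested (5.40% higher and 4.40% lower). Both of these loci were higher at the later stage. Leaving out a T20 replicate leaves 1 library at T20. In T21 against T20, XLOC_067252 then differed by 1.85 without T20 replicate 1 and by 0.01 without T20 replicate 2. XLOC_047725 differed by 0.06 and 0.51 in these 2 fits. The medians of the 12 with all 8 libraries were -0.10 in T20 against T18 and 0.68 in T21 against T20 on the log2 scale. Over all loci they were 0.00 and 0.01. No call remained in T20 against T18 without T18 replicate 2, T18 replicate 3, T21 replicate 1 or T21 replicate 2, where 2 or 3 loci had an unadjusted p under 0.05. Over all loci, these fits called 2969 to 3817 loci. In T20 against T18 without T20 replicate 1, the differences were -2.11 for XLOC_067252 and -1.42 for XLOC_070031. It was 1.48 for *Tnc*, the locus called with all 8 libraries.

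*KCNA4* had normalised counts of 13.7, 9.91 and 22.98 in the T18 libraries, 35.9 and 22.3 at T20, and 156, 150 and 106 at T21. All T21 libraries were above all others, while T20 and T18 overlapped. In T21 against T18, *KCNA4* rose by 3.02 ± 0.38 (SE) on the log2 scale (edgeR with Benjamini-Hochberg adjustment, adjusted p = 4.65e-05). In T21 against T20, it rose by 2.19 ± 0.45 (edgeR with Benjamini-Hochberg adjustment, adjusted p = 0.00891). Both calls held in all 14 alternative fits, leaving out each library included. In T20 against T18 the difference was 0.83 ± 0.45 and did not pass (edgeR with Benjamini-Hochberg adjustment, adjusted p = 0.247).

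The mirror locus of *KCNA4*, XLOC_046222, had 1 count in 1 T20 library, 1 in 1 T21 library and none in the others. Since counting used the strand, the 2 loci are read separately. *Ano2* had normalised counts of 2.50, 4.13 and 7.03 at T18, 5.98 and 11.2 at T20, and 13.6, 19.9 and 11.8 at T21. Its T21 libraries were above all T18 libraries, but the difference of 1.55 ± 0.67 did not pass (edgeR with Benjamini-Hochberg adjustment, adjusted p = 0.0995). XLOC_046337, on the strand of *KCNA4*, had means of 12.97, 6.15 and 10.3 at T18, T20 and T21 and passed in no comparison.

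*Tnc* had normalised counts of 216, 142 and 83.3 at T18, 2203 and 395 at T20, and 1300, 1154 and 861 at T21. Every T20 and T21 library was above every T18 library, and the 2 T20 libraries lay on either side of all T21 libraries. In T21 against T18, *Tnc* rose by 2.95 ± 0.71 on the log2 scale (edgeR with Benjamini-Hochberg adjustment, adjusted p = 0.0223). This call was lost without T18 replicate 2, T18 replicate 3 or T21 replicate 1, and also when loci with low counts were kept. Its adjusted p ranged from 0.000219 to 0.0714 over 14 alternatives. In T20 against T18, *Tnc* rose by 3.22 ± 0.75 (edgeR with Benjamini-Hochberg adjustment, adjusted p = 0.0360). Without T20 replicate 1, which was the highest of all 8 libraries, the difference was 1.48 and the call was lost. The same call was also lost in 5 other alternatives, where the adjusted p reached 0.105. T21 and T20 overlapped, and their difference of -0.27 ± 0.71 did not pass (edgeR with Benjamini-Hochberg adjustment, adjusted p = 0.868).

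The intronic *plaa* locus XLOC_041564 had normalised counts of 1.25, 11.6 and 7.03 at T18, 10.5 and 24.2 at T20, and 27.2, 36.7 and 27.4 at T21. T21 libraries were above all others. The rise in T21 against T18 was 2.09 ± 0.61 on the log2 scale (edgeR with Benjamini-Hochberg adjustment, adjusted p = 0.0173). It rests on 1, 14 and 26 counts at T18 and on 14, 24 and 74 at T21, and was lost without T18 replicate 3, T21 replicate 2 or T21 replicate 3. The host locus XLOC_041563 had means of 999 ± 165 at T18 (SD, n = 3), 909 ± 19.9 at T20 (n = 2) and 1086 ± 1.13 at T21 (n = 3). It differed by 0.10 ± 0.12 on the log2 scale in T21 against T18, which did not pass (edgeR with Benjamini-Hochberg adjustment, adjusted p = 0.590). The difference in response between the 2 *plaa* loci was not tested.

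XLOC_056569, which starts inside the longest run, had normalised counts of 33.7, 6.61 and 16.2 at T18, 32.9 and 11.2 at T20, and 75.9, 49.0 and 67.7 at T21. T21 libraries were above all others and T20 and T18 overlapped. The rise in T21 against T18 was 1.81 ± 0.53 (edgeR with Benjamini-Hochberg adjustment, adjusted p = 0.0182), and was lost without T18 replicate 2, T18 replicate 3, T21 replicate 1 or T21 replicate 3. XLOC_056570, which starts further along the same strand in that run, had means of 60.6, 46.1 and 38.4 and passed in no comparison. Its difference in T21 against T18 was -0.65 ± 0.34 (edgeR with Benjamini-Hochberg adjustment, adjusted p = 0.174).

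XLOC_047725 on scaf_00059 had normalised counts of 1545, 1693 and 1844 at T18, 1395 and 1916 at T20, and 2053, 1989 and 1931 at T21. T21 libraries were above all others, but by little, and the difference of 0.21 ± 0.11 in T21 against T18 did not pass (edgeR with Benjamini-Hochberg adjustment, adjusted p = 0.183). It passed when only the libraries of these 2 stages were fitted (edgeR with Benjamini-Hochberg adjustment, adjusted p = 0.0313). On short scaffolds, XLOC_070031 had normalised counts of 516, 801 and 619 at T18, 483 and 248 at T20, and 484, 465 and 339 at T21. All T20 and T21 libraries were below all T18 libraries. The differences of -0.62 ± 0.24 in T21 against T18 and -0.82 ± 0.28 in T20 against T18 did not pass (edgeR with Benjamini-Hochberg adjustment, adjusted p = 0.0744 and 0.0715). The first passed in 6 and the second in 5 of 14 alternatives. XLOC_067252 had means of 234, 127 and 201 at T18, T20 and T21, and T20 replicate 2 was lowest at 55.9. Its difference of -0.87 ± 0.41 in T20 against T18 did not pass (edgeR with Benjamini-Hochberg adjustment, adjusted p = 0.189). The difference passed when loci with low counts were kept (edgeR with Benjamini-Hochberg adjustment, adjusted p = 0.0104). It depended on the T20 library, at -2.11 without T20 replicate 1 and -0.27 without T20 replicate 2. XLOC_070034, a locus without a strand on scaf_07013, had means of 18.3, 6.35 and 10.5. Both of its T20 libraries were below all T18 libraries. The difference of -1.51 ± 0.70 in T20 against T18 did not pass (edgeR with Benjamini-Hochberg adjustment, adjusted p = 0.174).

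**Figure D4:**
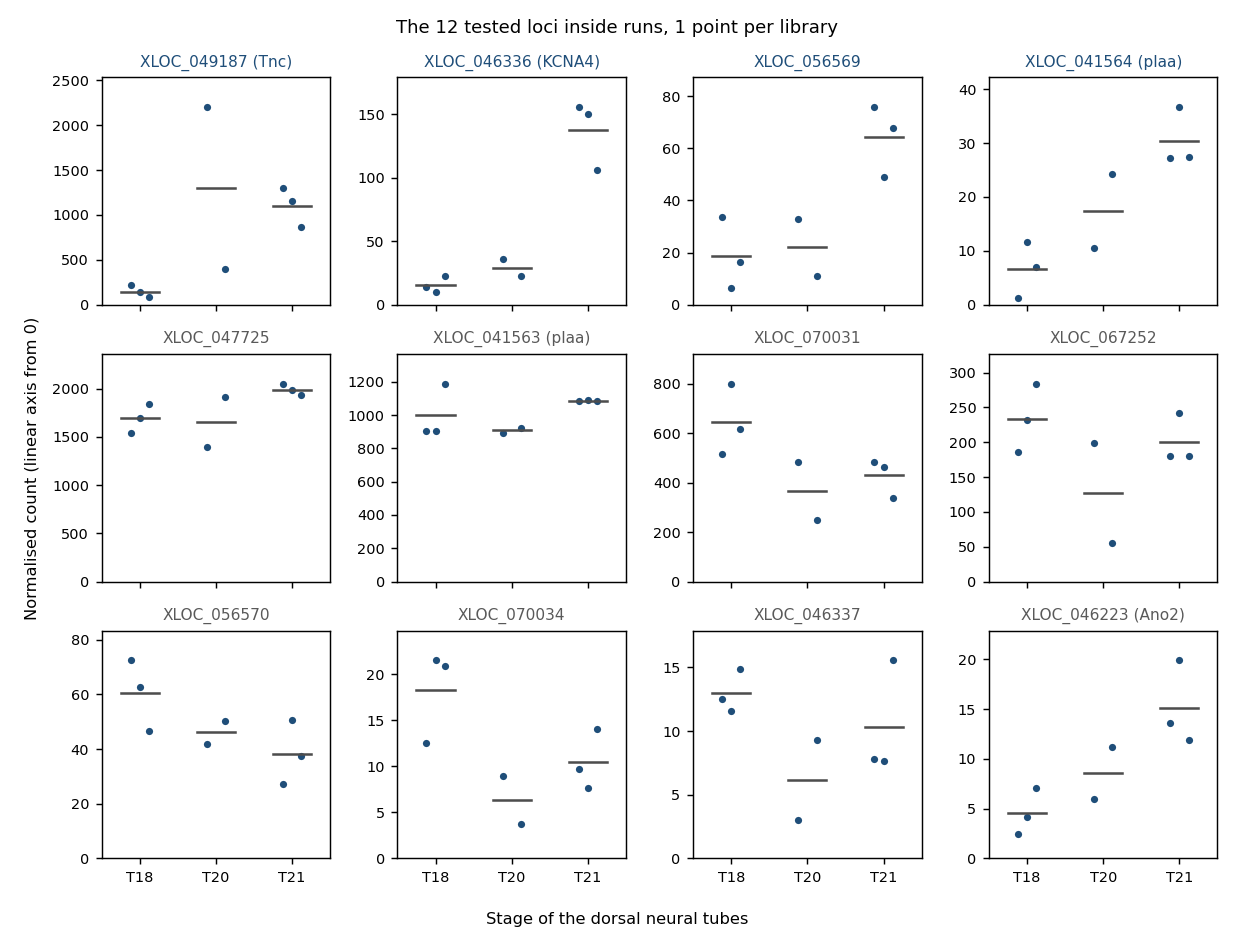
Normalised counts (linear axes from 0) of the 12 tested loci inside runs at T18, T20 and T21, with 1 point per library and a line at the mean of each stage. The 4 loci of the top row, with blue titles, differed in T21 against T18, and *KCNA4* reached 156, 150 and 106 at T21.

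Levels of markers of other tissues changed with stage. Of 29 markers listed, 16 were matched to a locus. The 3 matched epidermal markers (*Krt8*, *Krt18*, *Tp63*) summed to 8563 to 10324 normalised counts per library at T18, 17112 to 39431 at T20 and 72628 to 83673 at T21. The members went different ways, as *Krt8* had means of 416, 21437 and 73455 at T18, T20 and T21, while *Tp63* had means of 8891, 6818 and 5132. The 3 of notochord and floor plate (*Shh*, *shha*, *FoxA2*) summed to 596 to 1202, 32 to 182 and 7.65 to 19.5 at those stages, and *FoxA2* was at 0 in all T21 libraries. *Tbx6*, the only matched marker of 5 listed for mesoderm, had 644 to 1437 at T18 and 1.11 to 3.89 at T21. The 2 endoderm markers (*Sox17*, *Gata6*) summed to 249 to 395 at T18 and 14.4 to 32.1 at T21. The 4 neural crest markers (*Sox10*, *Foxd3*, *Tfap2a*, *Tfap2b*) summed to 3352 to 3701 at T18, 6254 to 12182 at T20 and 15171 to 15693 at T21, and the 3 of the neural tube (*Elavl3*, *Wnt1*, *Zic1*) to 3620 to 4024, 3927 to 4711 and 5052 to 5697. Of these, *Wnt1* had means of 33.0, 2335 and 3526, *Elavl3* 24.3, 40.7 and 76.7, and *Zic1* 3791, 1944 and 1845. No blood marker was matched. The part of these tissues in the changes of *Tnc*, *KCNA4* and the other loci was not tested, and in bulk tissue fewer cells of a type and less RNA per cell cannot be told apart.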

How the data were processed

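The authors trimmed reads with Sickle and mapped both species to the sea lamprey germline genome, RNA-seq with STAR 2.4.2 and ATAC-seq with Bowtie2. The deposited counts per locus of a Cufflinks and Cuffmerge transcriptome came from featureCounts 1.4.6-p4, stranded and with multi-mapping reads. The deposited normalised values are a linear signal, these counts divided by a DESeq2 size factor. The authors called ATAC-seq peaks with MACS2 per stage on merged, down-sampled replicates and merged stages into the deposited consensus positions, which carry no score.

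Runs, overlaps (1 bp or more) and loci were computed in Python (3.11.15, with pandas 2.3.3, scipy 1.17.1 and numpy 2.4.6), which also drew the plots (matplotlib 3.10.9). Positions count from 1. Stages were compared with edgeR 4.0.16 in R 4.3.3 (TMM, filterByExpr, robust quasi-likelihood fit, stage as the only term, all 8 libraries, Benjamini-Hochberg adjustment over all tested loci, adjusted p under 0.05), and with DESeq2 1.42.0 as an alternative. SE is the log2 fold change divided by the root of its F statistic. The procedure was tested on simulated data. Alternatives changed the gap, the fewest peaks, the overlap, the definition of a locus inside a run, the normalisation, the filter and the libraries. Named were the 10 runs with most peaks, the 5 longest, those most and least shared with brook lamprey, their leading loci, and named loci that passed with stages apart. Further loci inside runs, such as *Ano2*, XLOC_056570 and XLOC_070034, were added after their values were seen. The members and lists were chosen with earlier results of these data known. Names come from the study's lists, of which shortened copies were used. The header of the count table has 1 field more than its rows, so counts were read from the right and checked against the normalised table. Merged T20 head and embryo RNA-seq was not analysed here.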

Additional observations from a re-analysis of the deposited data

How the results depend on the processing

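The number of runs depends on the rule: there were 5 with gaps of at most 1000 bp, 103 at 3000 bp, 156 with at least 8 peaks and 2 with at least 12. The share of peaks overlapping a brook lamprey peak was 13.5% at 1000 bp, 36.8% at 3000 bp and 10.5% where 50% of each peak had to overlap (22.2% of all other peaks). It was 20.6% with 50% of the sea lamprey peak (28.7% of all others) and 22.6% for peaks of at least 300 bp (44.7% of all others). Loci inside runs numbered 7 by start site, 10 by whole locus, 0 at 1000 bp and 207 at 3000 bp. Over all loci in the edgeR fit on 8 libraries, 33.6% differed in T21 against T18, 17.3% in T20 against T18 and 9.80% in T21 against T20. The edgeR counts by exon, start site, whole locus and 3000 bp are read from that fit. In T20 against T18, DESeq2 called 4697 of 33700 loci, upper quartile normalisation 4850 of 25317 and the fit without the filter 5121 of 58793. In T21 against T18, edgeR called 2 loci with an exon in the run, 2 by start site, 1 by whole locus and 32 at 3000 bp (of 102 tested), and 1 to 6 with 1 library left out. In T20 against T18, the count was 2 with DESeq2, 2 with upper quartile normalisation, 2 without the filter, 0 to 2 with 1 library left out and 17 at 3000 bp. It was 0 by exon, by start site and by whole locus, where 1 locus each had an unadjusted p under 0.05 and 1 was called by DESeq2. In T21 against T20, the count was 1 with 1 T18 or T21 library left out (1255 to 2459 over all loci) and 9 at 3000 bp. It was 0 by exon, by start site and by whole locus, with 1, 1 and 0 at an unadjusted p under 0.05 and 0 by DESeq2. With no run holding a locus at 1000 bp, no test was possible there. The causes of these differences were not tested.

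Whether replicate numbers pair the libraries was not settled. For each locus, the mean of the stage was subtracted from the log-scale value of each library. These deviations, not the expression levels, were correlated between libraries of different stages over 15603 loci. The correlations were -0.04 to 0.15 for same-numbered libraries and -0.16 to 0.16 for different numbers. As T20 had 2 libraries, their deviations mirror each other by construction. T18 replicate 1 thus correlated at -0.0366 with T20 replicate 1 and at 0.0366 with T20 replicate 2. Between T21 and T18, the deviations of same-numbered libraries correlated at 0.05 to 0.15, against -0.08 to 0.02 for different numbers. Replicate 3 was also the deepest library at T18 and at T21 (91015285 and 61222575 counts). A replicate block left 4, 1 and 1 calls in runs for T21 against T18, T20 against T18 and T21 against T20. Over all loci the block called 8157, 3541 and 1709, against 8509, 4391 and 2481 without it. No called difference of a locus inside a run changed direction in these alternatives. Low depth limits XLOC_041564, and edgeR's filter on low counts left out 10 of the 22 loci. Without it 19 were tested, and 3 had no counts.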

Other observations

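The same rule applied to the 314377 brook lamprey peaks gave 16 runs, with up to 15 peaks and a median length of 11351 bp, and 7 of them were on short scaffolds. Another, on scaf_00549, had an extent of 50112 bp, just above the division at 50000 bp. None of the 16 overlapped a sea lamprey run, and the largest brook lamprey run that touched a sea lamprey run had 8 peaks. Of the 171 brook lamprey peaks in these runs, 66 (38.6%) overlapped a sea lamprey peak, against 29.9% of all brook lamprey peaks. All 16 held at least 1 sea lamprey peak (median 4), and 11 of the 23 sea lamprey runs held no brook lamprey peak. These counts are not alike, since brook lamprey runs could be found only where brook lamprey reads mapped to the sea lamprey genome. Of the 23 scaffolds with a sea lamprey run, 9 had no brook lamprey peak at all. The longest chain, on scaf_00169 (258137 to 278657), overlapped several loci. The only name found among them was *IGSF10*, an immunoglobulin superfamily gene.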
